A study of Mus musculus with 16 samples.

Results

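The genes described here are 10 that are known to be induced when the mouse retina is stressed or degenerates: the intermediate filament gene Gfap, the acute phase protease inhibitor gene Serpina3n, the secreted factors Edn1, Edn2, Lif and Fgf2, the transcription factors Stat3 and Cebpd, and the metallothioneins Mt1 and Mt2. They were chosen by name, and each was represented by the array row of that symbol with the highest mean signal. Of the 10 genes, 9 had a row that carried their symbol alone, among 20259 such genes on the array. The single row with the Fgf2 symbol carried a second gene's symbol too, so no value is given for Fgf2.

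Retinal RNA was taken from mice null for Gtf2ird1, whose product is a TFII-I type transcription factor, and from wild-type (WT) mice of like age. The 16 samples formed 4 groups of 4 biological replicates: null at 4 months, WT at 4 months, null at 2 weeks and WT at 2 weeks. Each RNA sample came from individually extracted retina and was measured on a separate Affymetrix Mouse Exon 1.0 array, and no treatment is listed. The growth protocol gives the older age as 2 months while the titles and the extraction protocol give 4 months, the name used here. Strain, sex, the construction of the null allele and array batches are not given in the sources used here.

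Reactive gliosis is the response of retinal glia, above all the radial Müller glia and the astrocytes of the nerve fibre layer, to injury of the neurons around them. In the mouse, stressed photoreceptors are known to signal to glia through Edn2, and the cytokine Lif is also induced in stressed retina. Cytokine signals of the gp130 family activate the transcription factor STAT3, and Gfap, Serpina3n, Cebpd, Mt1 and Mt2 are well-known genes of this and related stress responses.

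The labels were first checked on the targeted gene. In 3 of the 4 Gtf2ird1 rows, log2 signal lay between 4.53 and 5.29 on all null arrays, against 8.22 to 9.55 on all WT arrays. The other row lay between 10.16 and 10.60 on all arrays. The mean of 8 rod photoreceptor markers was 11.92 to 12.21 on every array, so the labelled tissue was there. Array medians were 5.31 to 5.55, and WT replicate 1 of 2 weeks had both the highest median and the lowest median correlation with its own group, 0.964 against 0.982 or more for the others. Signal of 14 measured lens crystallin and lens structural genes differed widely between arrays: their mean per array was 7.63 to 10.94 in null and 7.51 to 10.18 in WT retinas at 4 months, and 9.45 to 12.49 in null and 7.98 to 10.18 in WT retinas at 2 weeks. Xist, the RNA that coats the inactive X chromosome, was bright on 3 WT arrays, 1 of 4 months and 2 of 2 weeks, and on 0 null arrays. In bulk retina, fewer cells of a type and less RNA per cell cannot be told apart.

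None of the 9 measured genes passed the test between null and WT retinas at either age. Differences are log2 signal of null minus WT from limma, and a gene was called at a Benjamini-Hochberg adjusted p under 0.05 over all 20259 genes. At 4 months 0 of 9 genes were called, where 0.41% of all genes were, and 1 of 9 (Serpina3n) had an unadjusted p under 0.05, as had 1087 of all genes. At 2 weeks the count was again 0 of 9, with 1.06% of all genes called, and 1 of 9 (Mt2) had an unadjusted p under 0.05, as had 2523 of all genes. The 4 null arrays lay wholly outside the 4 WT arrays for 0 of 9 genes at each age, against 4.73% of all genes at 4 months and 5.82% at 2 weeks. The difference of the genotype effects between the ages was called for 0 of 9 genes and for 0.00987% of all genes. The median difference of the 9 genes was 0.01 at 4 months and 0.03 at 2 weeks, beside -0.004 and -0.02 over all genes.

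Between ages, 3 of the 9 genes were called in at least 1 genotype. At 4 months against 2 weeks, Edn1 fell in both genotypes, Gfap fell in WT retinas and Mt2 rose in null retinas. In null retinas 2 of 9 genes were called, 1 lower (Edn1) and 1 higher (Mt2), where 9.61% of all genes were called, 5.9% lower and 3.71% higher. In WT retinas 2 of 9 genes were called, both lower (Edn1 and Gfap) and 0 higher, where 9.19% of all genes were called, 4.81% lower and 4.38% higher. The same 2 genes in each genotype were those whose 4-month arrays did not overlap the 2-week arrays, against 17.5% of all genes in null and 12.7% in WT retinas. The share of called genes that were higher depended on the scaling: in null retinas it was 38.6% as deposited, 25.9% after quantile normalization and 32.2% after median centring, and in WT retinas 47.7%, 31.5% and 59.1%. The directions of the called differences of Edn1, Gfap and Mt2 were the same under all of these scalings.

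**Figure D1:**
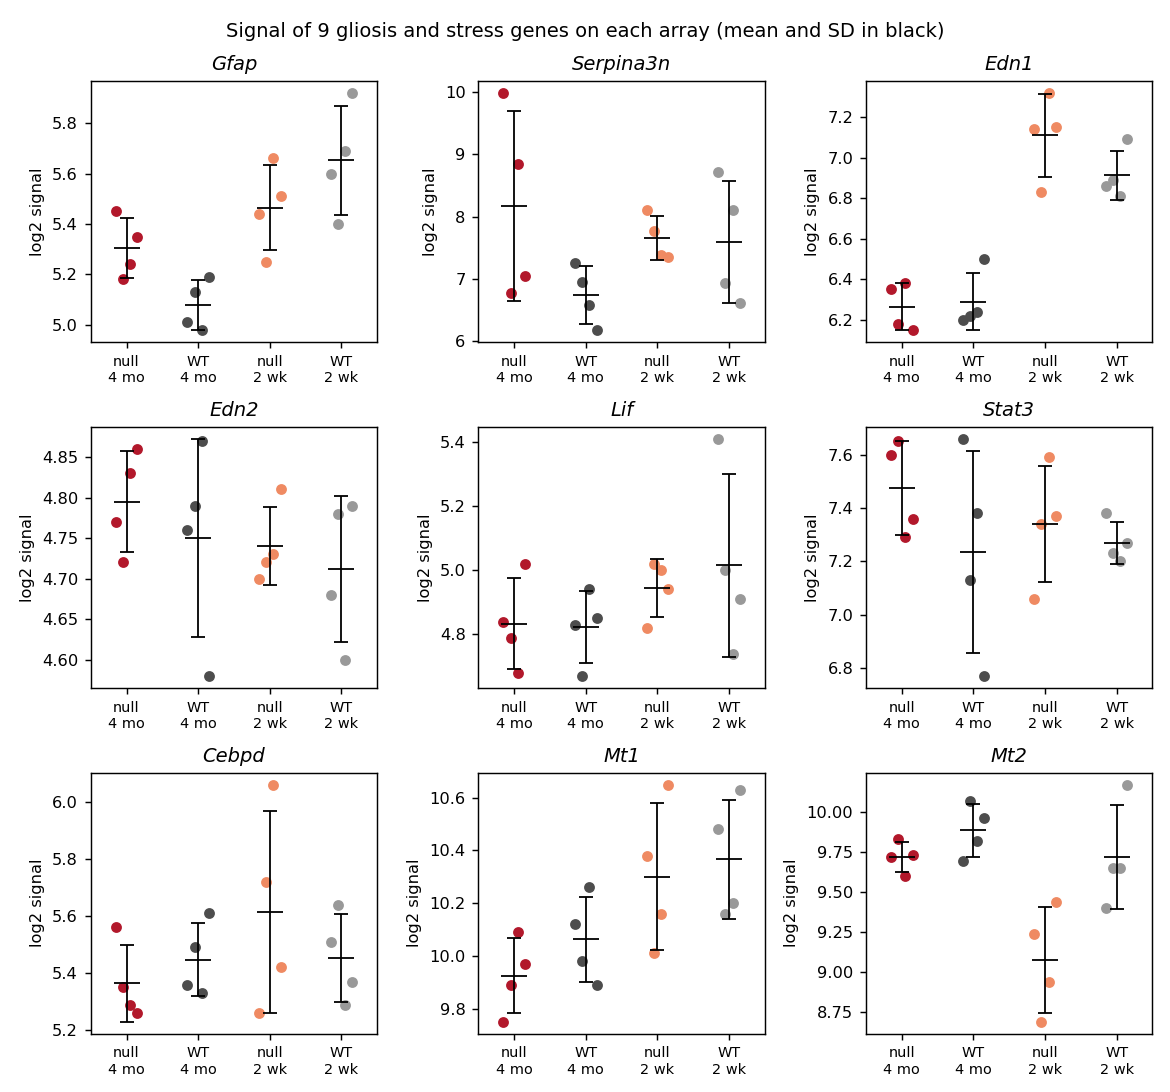
Log2 signal (vertical axes, one panel per gene, each with its own range) of the 9 measured genes on all 16 arrays, by group; points are single arrays and bars are group means. Edn1 is low in both 4-month groups, Serpina3n is spread most within groups, and Mt2 is lowest in null retinas of 2 weeks.

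Gfap, the filament protein by which gliosis is usually followed, gave a dim row, brighter than those of 32.8% of genes. Its log2 signal was 5.45, 5.18, 5.24 and 5.35 in null retinas of 4 months, and 5.01, 5.13, 4.98 and 5.19 in WT retinas of that age. At 2 weeks it was 5.44, 5.25, 5.66 and 5.51 in null retinas and 5.60, 5.40, 5.69 and 5.92 in WT retinas. The 2 genotypes overlapped at both ages, and all 4 WT arrays of 4 months lay below all 4 of 2 weeks. In WT retinas Gfap fell by 0.58 with age (SE 0.111, 1.49-fold, adjusted p = 0.00435 by limma, exact permutation p = 0.0286, which is the smallest that 4 against 4 arrays can give). In null retinas the difference with age was -0.16 and was not called (adjusted p = 0.444).

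Between genotypes, Gfap stood 0.23 above WT in null retinas of 4 months (95% interval -0.01 to 0.46, adjusted p = 0.975) and 0.19 below WT at 2 weeks (difference -0.19, interval -0.42 to 0.05, adjusted p = 0.518). The 2 differences were themselves 0.41 apart (interval 0.08 to 0.75, unadjusted p = 0.0183, adjusted p = 0.733 by limma), so the change between ages did not pass the test over all genes. The mean of 8 astrocyte markers, a list without Gfap, was 6.77 to 6.82 in null and 6.83 to 6.96 in WT retinas at 4 months. At 2 weeks it was 7.10 to 7.39 in null and 7.07 to 7.14 in WT retinas. The list mean was thus lower at 4 months in both genotypes. Of the single markers 2 of 8 were called lower in null and 1 of 8 in WT retinas (Agt in both), and the others were not called. Over all genes, 5.9% were called lower in null and 4.81% in WT retinas. The part of the 8 markers in the age difference of Gfap was not tested. The mean of 15 Müller glia markers was 9.59 to 9.83 in null and 9.51 to 9.85 in WT retinas at 4 months, and 9.82 to 10.11 in null and 9.77 to 9.85 in WT retinas at 2 weeks. With age 3 of these 15 were called lower in null (Slc1a3, Car14 and Hes1) and 3 in WT retinas (Slc1a3, Crym and Car14). In each genotype 0 were called higher and 12 were not called.

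The Gfap promoter is shown because it was the single one among the 9 available promoters of these genes with a palindromic STAT-type motif, TTCNNNGAA, which 8.3% of 32851 mouse promoters of the same 300 bases hold. The window runs from 250 bases before to 50 after the annotated start on the minus strand (RefSeq, GRCm38.p6, chr11:102897151-102897450), and capitals mark the match. A match is a description of the letters and not a shown binding site, and no match of the metal response motif given below overlaps it.
Gfap: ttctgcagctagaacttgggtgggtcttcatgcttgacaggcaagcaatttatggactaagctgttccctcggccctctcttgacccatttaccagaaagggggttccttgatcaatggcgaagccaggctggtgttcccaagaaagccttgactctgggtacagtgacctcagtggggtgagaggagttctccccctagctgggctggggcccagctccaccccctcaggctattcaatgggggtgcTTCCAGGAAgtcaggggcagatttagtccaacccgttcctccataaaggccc

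Serpina3n, whose product inhibits serine proteases and which is a marker of reactive astrocytes, varied most of the 9 genes, with an SD of 1.005 over the 16 arrays. In null retinas of 4 months its log2 signal was 9.99, 6.77, 8.85 and 7.05, and in WT retinas of that age 7.26, 6.94, 6.57 and 6.17. At 2 weeks it was 8.10, 7.76, 7.38 and 7.35 in null and 8.71, 6.93, 8.11 and 6.61 in WT retinas. Replicates 1 and 3 of null retinas at 4 months lay above all WT arrays of that age, and replicates 2 and 4 lay among them. The mean difference of 1.43 at 4 months (SE 0.585, interval 0.19 to 2.67, 2.69-fold, unadjusted p = 0.0264) was not called, with an adjusted p of 0.745 by limma and an exact permutation p of 0.171. Without replicate 1 of the null retinas at 4 months, the difference was 0.82. At 2 weeks the difference was 0.06 with an interval of -1.18 to 1.3, which nearly reaches the size seen at 4 months.

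Serpina3n was high on the null arrays of 4 months that also had high lens signal. The lens marker mean on replicates 1 to 4 of null retinas at 4 months was 10.94, 7.63, 9.56 and 7.63, in step with Serpina3n on those 4 arrays. This was not so in the other groups: WT replicate 4 of 4 months had a lens mean of 10.18 with the lowest Serpina3n of all 16 arrays, and null replicate 2 of 2 weeks had the highest lens mean, 12.49, with a Serpina3n signal of 7.76. With the lens mean as a covariate the Serpina3n difference was 1.32 at 4 months and -0.71 at 2 weeks, and it was not called at either age. Without the 3 WT arrays on which Xist was bright, the difference was 1.24 at 4 months.

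**Figure D2:**
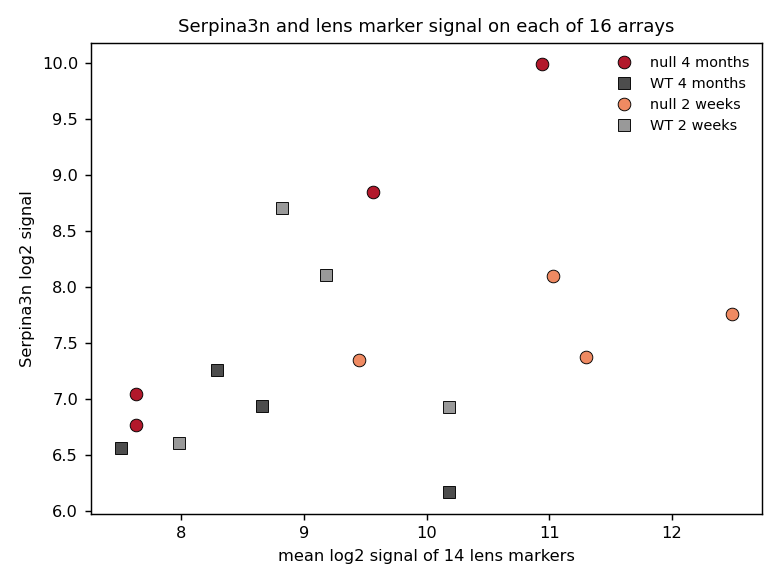
Serpina3n log2 signal (vertical axis) against the mean log2 signal of 14 lens markers (horizontal axis), one point per array, coloured by group. The 2 null arrays of 4 months with the highest Serpina3n, 9.99 and 8.85, have lens means of 10.94 and 9.56, while the array with the highest lens mean, 12.49, has a Serpina3n signal of 7.76.

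By Pearson correlation over the 16 arrays after subtracting group means, the 5 genes most like Serpina3n among 10129 genes at or above the median signal were Cd63 (0.919), Pdpn (0.869), Islr (0.846), Cryab (0.839) and Pmp22 (0.811). Cd63 codes for a tetraspanin of endosomal membranes and Cryab for a small heat shock protein that is abundant in the lens. The arrays share their platform and dissection, and these values only describe likeness within this set of arrays. The other measured genes of the Serpina3 cluster, 4 of 9 listed, did not include a called one in any comparison. The share of all genes called was 0.41% between genotypes at 4 months and 1.06% at 2 weeks. With age it was 9.61% in null and 9.19% in WT retinas. Serpina3b, the one with the smallest p, differed by 0.14 at 4 months and 0.12 at 2 weeks, and Serpina3f by 0.01 and -0.20.

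Edn1 codes for endothelin 1, a vasoconstrictor peptide that also acts on astrocytes and Müller glia. Its log2 signal was 6.35, 6.18, 6.38 and 6.15 in null and 6.20, 6.22, 6.24 and 6.50 in WT retinas at 4 months. At 2 weeks it was 7.14, 6.83, 7.32 and 7.15 in null and 6.86, 6.89, 6.81 and 7.09 in WT retinas. All 4-month arrays of both genotypes lay below all 2-week arrays. Edn1 fell by 0.85 with age in null retinas (SE 0.108, 1.8-fold, adjusted p = 0.00017) and fell by 0.62 in WT retinas (SE 0.108, 1.54-fold, adjusted p = 0.00222, both by limma), with an exact permutation p of 0.0286 in each. The genotypes overlapped at both ages, with a difference of -0.03 at 4 months (interval -0.26 to 0.20) and 0.20 at 2 weeks (interval -0.03 to 0.43).

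The endothelin B receptor gene Ednrb, expressed by glia and vessels, fell with age beside its ligand. It averaged 7.34 ± 0.15 in null retinas at 4 months, against 8.47 ± 0.33 at 2 weeks (SD, n = 4 each), a difference of -1.13 with an adjusted p of 0.00205 by limma. In WT retinas Ednrb averaged 7.25 ± 0.44 at 4 months, against 8.01 ± 0.28 at 2 weeks (difference -0.76, adjusted p = 0.0251 by limma, n = 4 each). Edn3, another endothelin ligand, fell in null retinas (-0.49, adjusted p = 0.0133) and differed by -0.06 in WT retinas. The number of called genes among the 4 measured of the endothelin axis was thus 2 lower in null and 1 lower in WT retinas, with 0 higher and 0 called between genotypes. Over all genes, 5.9% were called lower with age in null and 4.81% in WT retinas.

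The mean of 11 endothelial and pericyte markers was also lower at 4 months. It was 6.81 to 6.90 in null and 6.75 to 6.89 in WT retinas at 4 months, and 7.20 to 7.54 in null and 7.09 to 7.21 in WT retinas at 2 weeks. Of the 11, 6 were called lower, 1 (Kdr) higher and 4 were not called with age in null retinas, where 5.9% of all genes were called lower. In WT retinas 5 were called lower, 1 (Flt1) higher and 5 were not called, where 4.81% of all genes were called lower. Between genotypes at 2 weeks, 1 of the 11 (Flt1) was called, higher in null retinas, where 1.06% of all genes were called. The part of the 11 markers in the fall of Edn1 and Ednrb was not tested. By the same measure as for Serpina3n, the 5 genes most like Edn1 were Zcchc10 (0.835), Adprhl2 (0.828), Pop7 (0.825), Rexo4 (0.816) and Zfp277 (0.814). Among the 8 other stress genes, the correlation with Edn1 ran from -0.231 (Stat3) to 0.692 (Gfap), with Mt2 next at 0.452.

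**Figure D3:**
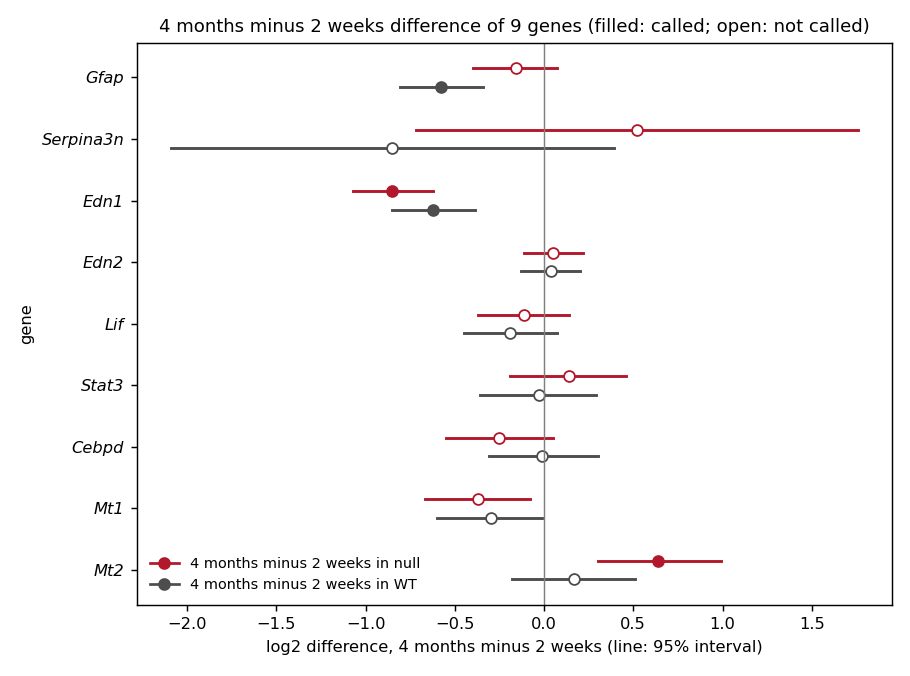
Difference in log2 signal between 4 months and 2 weeks (horizontal axis, 4 months minus 2 weeks) for the 9 genes, with unadjusted 95% limma intervals, in null and in WT retinas; filled points were called and open ones were not. Edn1 lies below 0 in both genotypes at -0.85 and -0.62, Gfap lies below 0 in WT at -0.58, and Mt2 lies above 0 in null at 0.64.

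The other secreted factors gave dim rows. Edn2, the endothelin that injured photoreceptors are known to release in mouse, ranged from 4.72 to 4.86 in null and 4.58 to 4.87 in WT retinas at 4 months, and from 4.70 to 4.81 in null and 4.60 to 4.79 in WT retinas at 2 weeks. Its row was brighter than 10.1% of genes, so little signal was there from which a fall could be seen. The genotype difference of Edn2 was 0.04 at 4 months (interval -0.12 to 0.21) and 0.03 at 2 weeks (interval -0.14 to 0.19). Lif ranged from 4.68 to 5.02 in null and 4.67 to 4.94 in WT retinas at 4 months, and from 4.82 to 5.02 in null and 4.74 to 5.41 in WT retinas at 2 weeks. Its difference was 0.01 at 4 months (interval -0.25 to 0.26) and -0.07 at 2 weeks (interval -0.33 to 0.18). For neither gene did a group lie apart from the others.

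Of the 7 genes of the fibroblast growth factor axis that were measured beside Fgf2, 0 were called in any comparison. The share of all genes called was 0.41% between genotypes at 4 months and 1.06% at 2 weeks. With age it was 9.61% in null and 9.19% in WT retinas. The 2 with the smallest unadjusted p between genotypes were Fgf9, a ligand, and the receptor gene Fgfr3. Fgf9 averaged 8.46 in null against 8.76 in WT retinas at 4 months, a difference of -0.31 whose 2 groups did not overlap but whose adjusted p was 0.495 by limma. Fgfr3 averaged 6.58 in null against 6.04 in WT retinas at 2 weeks, a difference of 0.54 (interval -0.08 to 1.16).

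Stat3, which carries the gp130 cytokine signal to the nucleus, had log2 signals of 7.60, 7.65, 7.29 and 7.36 in null and 7.66, 7.13, 7.38 and 6.77 in WT retinas at 4 months. At 2 weeks it had 7.06, 7.34, 7.59 and 7.37 in null and 7.38, 7.23, 7.20 and 7.27 in WT retinas. Null and WT arrays overlapped at both ages, with differences of 0.24 (interval -0.09 to 0.57) and 0.07 (interval -0.26 to 0.40). The array measures Stat3 transcript and not the phosphorylated protein. Cebpd, a C/EBP factor of the acute phase response, ranged from 5.26 to 5.56 in null and 5.33 to 5.61 in WT retinas at 4 months, and from 5.26 to 6.06 in null and 5.29 to 5.64 in WT retinas at 2 weeks. Its genotype difference was -0.08 at 4 months and 0.16 at 2 weeks, and replicate 3 of null retinas at 2 weeks was the highest of all 16 arrays. A second, dimmer Cebpd row averaged 4.29 in null and 4.28 in WT retinas at 4 months and 4.28 in null and 4.26 in WT retinas at 2 weeks.

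In the cytokine and JAK-STAT axis, 16 genes were measured beside Lif and Stat3 and 0 were called between genotypes. With age, Lifr, the receptor subunit for Lif, fell in null (-0.33, adjusted p = 0.0459) and WT retinas (-0.43, adjusted p = 0.0121). The kinase gene Tyk2 rose in null retinas (0.35, adjusted p = 0.0445), and in WT retinas the receptor gene Cntfr rose (0.44, adjusted p = 0.00719) and Pias3, an inhibitor of STAT3, fell (-0.51, adjusted p = 0.00734, all by limma). The remaining 13 of 16 were not called in WT retinas, nor were 14 of 16 in null retinas. Among 7 C/EBP and acute phase factors, Nfkbiz fell in null (-0.41) and WT retinas (-0.31), Cebpg rose in WT retinas (0.57), and 0 were called between genotypes. Beside these counts, 9.61% of all genes were called with age in null and 9.19% in WT retinas. Between genotypes 0.41% of all genes were called at 4 months and 1.06% at 2 weeks.

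Mt1 and Mt2 code for the small cysteine-rich metallothioneins, which bind zinc and copper and are induced by metals, glucocorticoids and oxidative stress. They are neighbours on chromosome 8, and both rows were among the bright ones of the array, brighter than 93.9% and 90.1% of genes. Their promoters are shown for the metal response element core TGCNCNC, which was searched on both strands and is marked in capitals where it matched. Both windows are on the plus strand (RefSeq, GRCm38.p6), chr8:94178839-94179138 for Mt1 and chr8:94172368-94172667 for Mt2, from 250 bases before to 50 after the annotated start.
Mt1: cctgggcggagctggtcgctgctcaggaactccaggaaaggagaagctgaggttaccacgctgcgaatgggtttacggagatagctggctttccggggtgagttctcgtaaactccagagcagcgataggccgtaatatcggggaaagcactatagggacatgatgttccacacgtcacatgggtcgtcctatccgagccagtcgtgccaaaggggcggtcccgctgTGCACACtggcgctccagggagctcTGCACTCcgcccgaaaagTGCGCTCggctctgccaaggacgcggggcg
Mt2: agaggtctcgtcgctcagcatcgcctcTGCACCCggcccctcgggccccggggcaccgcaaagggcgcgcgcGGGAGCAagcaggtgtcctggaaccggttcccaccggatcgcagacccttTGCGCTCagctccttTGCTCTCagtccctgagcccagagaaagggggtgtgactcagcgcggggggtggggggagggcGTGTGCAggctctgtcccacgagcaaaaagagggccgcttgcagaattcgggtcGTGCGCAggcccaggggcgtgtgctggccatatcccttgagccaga

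Mt1 held 3 matches and Mt2 6, with no overlap between matches. Of all 32851 promoters, 51.0% held at least 1 match, 7.1% held at least as many as Mt1 and 0.225% at least as many as Mt2. The motif was in 6 of the 9 promoters of these genes: beside Mt1 and Mt2, Edn1 and Fgf2 held 2 matches each and Edn2 and Lif 1 each, while Gfap, Serpina3n and Stat3 held 0. Cebpd had no promoter in the table used.

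Mt2 had log2 signals of 9.72, 9.83, 9.60 and 9.73 in null and 9.69, 10.07, 9.82 and 9.96 in WT retinas at 4 months. At 2 weeks it had 9.24, 8.69, 8.94 and 9.44 in null and 9.40, 9.65, 9.65 and 10.17 in WT retinas. The null retinas of 2 weeks stood lowest of the 4 groups, with replicate 4 just above the lowest WT array. The difference of -0.64 between null and WT retinas at 2 weeks (SE 0.163, interval -0.98 to -0.29, 1.56-fold, unadjusted p = 0.00119) was not called, with an adjusted p of 0.0788 by limma and an exact permutation p of 0.0571. It was called under 4 of 27 alternatives: quantile normalization (adjusted p = 0.0392), array weights (0.0277), and without null replicate 4 (0.0429) or WT replicate 1 (0.0282) of 2 weeks. Under the others it was not called, among them median centring (adjusted p = 0.206) and only the arrays compared (0.312, all by limma). At 4 months the difference was -0.17 (interval -0.51 to 0.18), and the 2 differences were 0.47 apart (interval -0.01 to 0.96, adjusted p = 0.859).

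In null retinas Mt2 rose with age by 0.64 (SE 0.163, 1.56-fold, adjusted p = 0.0196 by limma, exact permutation p = 0.0286), and in WT retinas it differed by 0.17 (adjusted p = 0.599). The rise in null retinas was not called after median centring (0.62, adjusted p = 0.0581) or without null replicate 2 of 2 weeks (0.51, 0.0583), null replicate 3 of 2 weeks (0.59, 0.0593) or null replicate 2 of 4 months (0.60, 0.0578). The null retinas of 2 weeks also had the highest group means of lens and pigment epithelium markers, and of Müller glia, astrocyte, and endothelial and pericyte markers. Their lens marker means were 11.03, 12.49, 11.30 and 9.45, and their Mt2 was lowest on the array with the most lens signal and highest on the one with the least. In no other group was Mt2 lowest on the array with the most lens signal. WT replicate 4 of 4 months had that group's highest lens mean, 10.18, with an Mt2 of 9.96. Mt2 was highest on the array with the least lens signal in WT retinas of 2 weeks too. In null retinas of 4 months, replicates 2 and 4 had nearly the same least lens mean, 7.63, with Mt2 of 9.83, the group's highest, and 9.73. The mean of 10 pigment epithelium markers was 7.30 to 7.92 in null and 6.43 to 7.36 in WT retinas at 2 weeks, and 5.51 to 6.60 in null and 5.80 to 6.53 in WT retinas at 4 months. Of these 10 markers, 2 (Tyr and Pmel) were called higher in null than in WT retinas at 2 weeks, where 1.06% of all genes were called. With the lens mean as a covariate, the Mt2 difference at 2 weeks was -0.46 (adjusted p = 0.439) and the rise with age in null retinas was 0.45 (adjusted p = 0.219). Without the 3 WT arrays on which Xist was bright, it was -0.57 at 2 weeks (adjusted p = 0.153). Whether the tissues and cells of these markers have a part in the values of Mt2 was not tested further.

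Mt1 was not called in any comparison. Its log2 signals were 9.75, 9.89, 10.09 and 9.97 in null and 10.12, 9.98, 10.26 and 9.89 in WT retinas at 4 months. At 2 weeks they were 10.38, 10.01, 10.16 and 10.65 in null and 10.48, 10.16, 10.20 and 10.63 in WT retinas. Null and WT retinas differed by -0.07 at 2 weeks (interval -0.36 to 0.23) and -0.14 at 4 months (interval -0.43 to 0.16). With age Mt1 differed by -0.37 in null (adjusted p = 0.112) and -0.30 in WT retinas (adjusted p = 0.206), the opposite sign to Mt2 in both. After subtracting group means, the correlation of Mt1 with Mt2 over the 16 arrays was 0.483, which placed Mt1 at 2534 of 10129 genes in likeness to Mt2, and that of Gfap with Mt2 was 0.526. The 5 genes most like Mt2 were Exoc3 (0.952), Lsm7 (0.915), Tmem50b (0.914), Atp6v1d (0.904) and Pmm2 (0.899). Of the 7 measured metal handling genes, 0 were called between genotypes, where 0.41% of all genes were at 4 months and 1.06% at 2 weeks. With age in WT retinas, Mtf1, the transcription factor that binds metal response elements, rose (0.46, adjusted p = 0.0221) and Slc30a10, a manganese exporter, fell (-0.51, adjusted p = 0.00483). In null retinas 0 of 7 were called with age. The share of all genes called with age was 9.19% in WT and 9.61% in null retinas.

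**Figure D4:**
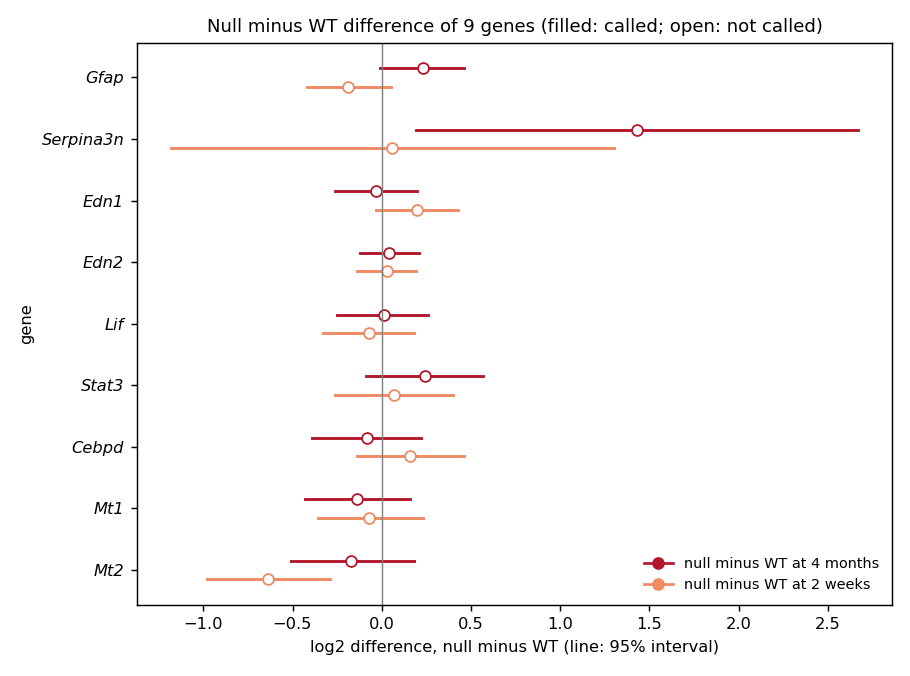
Difference in log2 signal between null and WT retinas (horizontal axis, null minus WT) for the 9 genes, with unadjusted 95% limma intervals, at 4 months and at 2 weeks; open points were not called. Serpina3n at 4 months (1.43) and Mt2 at 2 weeks (-0.64) have intervals that leave out 0, and 0 of 9 genes passed the adjusted test at either age.

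Over all 7 related lists, 67 of 79 listed genes were measured. Between null and WT retinas 0 of 67 were called at 4 months, where 6 had an unadjusted p under 0.05, and 0 of 67 at 2 weeks, where 14 did. Over all 20259 genes, 0.41% and 1.06% were called, and 1087 and 2523 had an unadjusted p under 0.05. With age, 2 of the 67 rose and 7 fell in null retinas, where 3.71% of all genes were called higher and 5.9% lower. In WT retinas 3 rose and 6 fell, where 4.38% of all genes were called higher and 4.81% lower. The median difference of the 67 genes with age was -0.06 in both genotypes, beside -0.016 in null and -0.043 in WT retinas over all genes. Among 22 other gliosis and stress genes, the stress-induced factor gene Atf3 rose in null retinas (0.59, adjusted p = 0.00723), and Jun (-0.51), the neurotrophin gene Bdnf (-0.35) and Sox11, a transcription factor of young neurons (-0.37), fell. Sox11 also fell in WT retinas (-0.43, adjusted p = 0.0158), where it was the only one of the 22 called. Vim, the other filament gene of reactive glia, differed by -0.02 between genotypes at 4 months and 0.23 at 2 weeks and was not called.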

How the data were processed

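Total RNA of 16 mouse retina samples was labelled with biotin and hybridised to Affymetrix Mouse Exon 1.0 arrays. The authors deposited log2 signals, 1 per array row and sample. Partek, RMA and the mm8 build stand in the submitters' processing notes, without versions. The log base was inferred from the values (3.76213 to 15.7311). Precision is limited by the number of arrays.

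Of 115830 rows, 25539 carried 1 gene symbol, 2300 several and 87991 none, by GEO's platform annotation. The row with the highest mean stood for each of 20259 genes, of which 3109 had several rows. There was no further scaling or filter on dim rows.

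The test was limma's (version 3.58.1, R 4.3.3, lmFit and eBayes) in 1 model of 4 group means, with 12 residual degrees of freedom and Benjamini-Hochberg adjustment over all genes. Exact permutation tests were two-sided. Intervals are 95% and not adjusted. Same-numbered null and WT arrays did not deviate together, so no replicate block was used. The procedure was tested on simulated data.

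The genes and lists were chosen with earlier results of these data known. Named beside the 10 genes and Gtf2ird1 are list members called in a comparison (otherwise the 2 with the smallest unadjusted p between genotypes), and the 5 genes most correlated with each of the 3 genes with the largest SD. Others are said to be outside this rule, apart from cell type markers and Vim, which was chosen by name. Alternatives were other scalings, row and gene filters, variance settings, array weights, a replicate block, a lens covariate, and leaving out arrays.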

Additional observations from a re-analysis of the deposited data

Results flagged for a closer look

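Edn1 in WT retinas of 4 months had 1 array far from the others: replicate 4 had a log2 signal of 6.50, the next was 6.24, and this gap was 0.888 of the group's range. This is above Dixon's 95% critical value for 4 arrays. It was the only one of 36 groups of arrays (9 genes in 4 groups) so marked, and chance marks about 1 in 20 groups. Edn1 was called lower with age in WT retinas under each of the 26 alternatives run for it, which include leaving out this array.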

How the results depend on the processing

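Of the differences of 9 genes in 5 comparisons, 4 were called, all between ages, and each kept its sign under the 25 or 26 alternatives that could be run for it. In all there were 27 alternatives, 16 of which left out an array. Of the 41 others, 18 changed sign under at least 1 alternative and 2 (Mt2 between genotypes at 2 weeks and Mt1 with age in null retinas) were called under at least 1. Edn1 with age was called under 26 of 26 alternatives in each genotype, Gfap in WT retinas under 25 of 25 and Mt2 in null retinas under 21 of 26. At 2 weeks the number of the 9 genes called between genotypes was 1 (Mt2) with quantile normalization and with array weights, and 0 to 1 when an array was left out. With age in null retinas it was 1 after median centring, 1 to 2 when an array was left out and 3 (with Mt1) with array weights. With the lens covariate it stayed at 2, with Mt1 (-0.64, adjusted p = 0.0111 by limma) in place of Mt2. In WT retinas it was 1 when genes below the median signal, Gfap among them, were left out.

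Over all genes, 83 were called between genotypes at 4 months, and 53 after median centring, 230 with all rows, 200 with array weights, 41 with the replicate block and 50 to 126 without single arrays. Here and below, a count with all rows is of array rows among 115830, of which 87991 had no gene symbol. It is not a count of genes. At 2 weeks 214 were called, and 134, 846, 491 and 93 under the same settings, 43 with only the arrays compared, 68 with the lens covariate and 77 to 525 without single arrays. For the difference of the genotype effects between the ages 2 were called, and 0 after median centring, 20 with all rows, 38 with array weights, 0 with the replicate block, 10 without the WT arrays with Xist signal, 1 with the lens covariate and 2 to 20 without single arrays. With age in null retinas 1947 were called, and 4136 with all rows, 3500 with array weights, 884 with the lens covariate and 1288 to 2655 without single arrays. With age in WT retinas 1861 were called, and 6247 with all rows, 855 with only the arrays compared, 2903 with array weights and 1117 to 2606 without single arrays. The cause was not tested. With the replicate block, the Mt2 difference at 2 weeks was -0.64 (adjusted p = 0.0641 by limma). The block could not be fitted for comparisons between ages, and no difference of genotype effects can be had from only the arrays compared.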

Other observations

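The 2 stress genes below were chosen after their values were seen. Hmox1, which codes for the heme-degrading enzyme heme oxygenase 1, ranged from 5.98 to 11.96 in null retinas of 2 weeks, against 5.53 to 6.19 in WT retinas of that age. The difference in means was 2.79 on the log2 scale, and it was not called (adjusted p = 0.196 by limma). At 4 months Hmox1 ranged from 5.28 to 7.13 in null and 5.22 to 7.25 in WT retinas. Lcn2, a secreted acute phase protein of reactive astrocytes, ranged from 5.66 to 9.73 in null and 5.86 to 6.50 in WT retinas of 4 months, and 5.85 to 7.33 in null and 5.42 to 5.89 in WT retinas of 2 weeks. Its difference was 1.09 at 4 months and 0.66 at 2 weeks, and neither was called. The mean of the lens markers was 9.45 to 12.49 in null and 7.98 to 10.18 in WT retinas of 2 weeks, and its part in these values was not tested.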
